A study of Rattus norvegicus with 6 samples.

Results

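The miRNA content of untreated rat cortical neurons was described from the 3 control libraries of a series of 6 small RNA libraries, with all 649 listed mature miRNAs taken as members. The series asked how a short exposure to BDNF, a neurotrophin, changes mature miRNAs. The BDNF libraries, at 100 ng/ml, enter no value here. The neurons were dissociated from the cortex of embryonic day 18 Sprague-Dawley rats of both sexes and grown in Neurobasal medium with B27. All cultures received FUDR and uridine, which stop the proliferation of non-neuronal cells. At 7 days in vitro (DIV), as the sample labels give it, the control cultures received the vehicle, 0.1% BSA, for 20 min. A figure legend of the paper gives another day for these libraries. The replicates are described as independent experiments. Each library is bulk RNA of a culture, so that a value is a mean over many neurons and whatever other cells remained.

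A mature miRNA is a short RNA cut from one arm, 5p or 3p, of a hairpin precursor and loaded into an Argonaute protein. It recognises target mRNAs mainly through its seed, the bases near its 5′ end, so that miRNAs with the same seed share many predicted targets. MiR-9, miR-124 and miR-128 are classical miRNAs of the nervous system, and the let-7 family is known to accumulate as cells leave the progenitor state. MiR-132 and miR-212 are known as products of a locus induced by neuronal activity and neurotrophins.

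The 3 control libraries held 10438941, 12533029 and 10374120 counts. Of the 649 miRNAs, 562 had counts in all 3 libraries, 68 in some of them, and 19 were at 0 in every library. Levels are given as RPM, the count divided by the column sum and scaled to a sum of 1000000, so that an RPM is a share of the miRNA reads of that library and not a number of molecules. A count of 0 allows up to 3 counts, which corresponds to between 0.239 and 0.289 RPM, and a level of 10 RPM stands for between 103.7 and 125.3 reads. At a mean of 10 RPM or more, the minimum of the study's methods, 334 miRNAs remained. The other 315 held 0.0552% of the counts.

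The sequences below are the mature forms that carry most of the reads, with the seed (bases 2 to 8) in capitals. They were taken from RefSeq (rat build GRCr8), where 582 of the listed miRNAs, 305 of the 334 at 10 RPM or more, had an entry. The first set holds 16 of the 20 most abundant miRNAs. MiR-9a-3p and miR-101a-3p follow with the arms and the variable miRNAs, and miR-99a-5p and miR-30d-5p had no entry.
miR-9a-5p: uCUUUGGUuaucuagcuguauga
miR-128-3p: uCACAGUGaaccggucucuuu
let-7c-5p: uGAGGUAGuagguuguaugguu
let-7f-5p: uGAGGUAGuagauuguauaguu
let-7g-5p: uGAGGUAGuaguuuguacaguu
let-7i-5p: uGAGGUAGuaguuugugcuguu
let-7b-5p: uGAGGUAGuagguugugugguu
let-7a-5p: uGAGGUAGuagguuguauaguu
miR-125b-5p: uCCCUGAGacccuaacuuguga
miR-7a-5p: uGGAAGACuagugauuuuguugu
miR-26a-5p: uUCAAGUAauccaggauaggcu
miR-30a-5p: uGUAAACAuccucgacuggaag
miR-127-3p: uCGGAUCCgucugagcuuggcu
miR-103-3p: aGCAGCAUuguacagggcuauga
miR-181a-5p: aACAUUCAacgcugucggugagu
miR-100-5p: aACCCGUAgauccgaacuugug

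A single miRNA dominated the control neurons. MiR-9a-5p, which acts in neurogenesis and neuronal differentiation, took 30.13, 30.75 and 24.96% of the counts in replicates 1, 2 and 3, a mean of 28.6 ± 3.18% (SD, n = 3). It was the most abundant miRNA in every library and the lowest value was that of replicate 3. The counting error of such a share is small. In replicate 1 the 301317 RPM had a 95% Wilson interval from 301038 to 301595, and the intervals of the 3 libraries did not overlap. Its mature sequence is encoded at 3 sites in GRCr8. These are chr1:142849415-142849437 (Mir9-3) and chr2:15933307-15933329 (Mir9-2), which lie in no other annotated gene, and chr2:175974986-175975008 (Mir9-1), inside the lncRNA LOC100911992. All lie on the plus strand, and the counts do not tell the sites apart.

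MiR-128-3p, a brain-enriched miRNA known to limit neuronal excitability, ranked second in all 3 libraries. Its levels of 78240, 79747 and 79356 RPM lay closer together than those of any other miRNA at 100 RPM or more, with a coefficient of variation (CV) of 0.989%. It is encoded at chr8:120963807-120963827 (minus strand), inside Arpp21, and at chr13:42251933-42251953 (plus strand), inside R3hdm1. The next places were held by let-7c-5p at 60315 ± 13610 RPM, let-7f-5p at 41274 ± 6172, miR-125b-5p at 40327 ± 8458, let-7g-5p at 38804 ± 1399 and let-7i-5p at 37521 ± 1403 (SD, n = 3). Of these, let-7c-5p was lowest in replicate 1 (46044 RPM) and highest in replicate 3 (73151 RPM), while let-7f-5p, with 47660 and 35341 RPM, went the other way. Below them stood miR-99a-5p at 26198 ± 2384 RPM, miR-7a-5p at 23210 ± 1092, miR-26a-5p at 21521 ± 1028 and miR-30a-5p at 19984 ± 2071 (SD, n = 3).

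**Figure D1:**
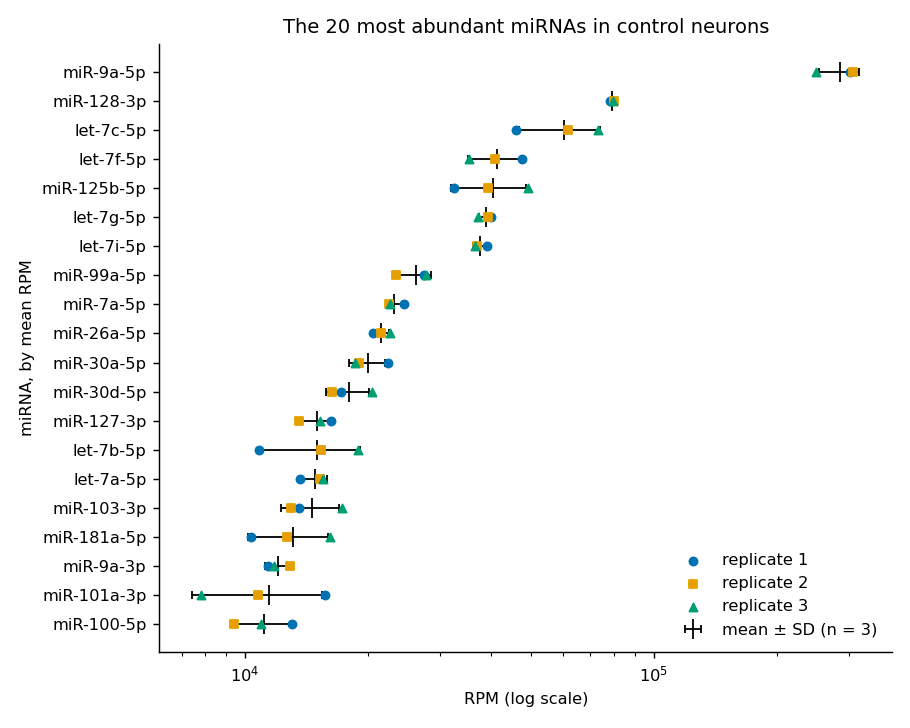
RPM (log scale) of the 20 miRNAs with the highest mean in control neurons. Points are the 3 libraries and black bars the mean ± SD (n = 3). MiR-9a-5p stands at 286144 RPM, more than 3 times miR-128-3p at 79114 RPM, and the points of let-7b-5p and miR-101a-3p are spread widest.

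The remaining members of the first 20 lay between 11127 and 17985 RPM. They were miR-30d-5p (17985 ± 2176), miR-127-3p (15011 ± 1366), let-7b-5p (15006 ± 4059), let-7a-5p (14817 ± 1016), miR-103-3p (14599 ± 2359), miR-181a-5p (13067 ± 2914), miR-9a-3p (12008 ± 787), miR-101a-3p (11430 ± 3993) and miR-100-5p (11127 ± 1822, all as mean RPM ± SD, n = 3). MiR-127-3p comes from the imprinted Dlk1-Dio3 region and is encoded within the span of Rtl1. MiR-9a-3p is the second product of the miR-9 hairpin, so that both arms of that precursor were among the first 20.

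The first ranks were stable between libraries and the later ones less so. Among the first 20 of every library were 18 miRNAs, 17 of them also among the first 20 by mean RPM, and 21 miRNAs reached the first 20 of any library. The order of neighbours held in all 3 libraries for 8 of 19 neighbouring pairs. It held for miR-9a-5p over miR-128-3p, for miR-128-3p over let-7c-5p and for each step from let-7g-5p down to miR-26a-5p. It also held for miR-30d-5p over miR-127-3p and for miR-103-3p over miR-181a-5p. Let-7c-5p and let-7f-5p, let-7f-5p and miR-125b-5p, and miR-125b-5p and let-7g-5p changed places between libraries. MiR-127-3p, let-7b-5p and let-7a-5p also changed places. Over all 334 miRNAs, the order held for 16 of 333 neighbouring pairs.

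Few miRNAs made up most of the reads. The 3 most abundant took 42.6 ± 2.35% of the counts, the first 5 took 50.7 ± 2.13%, the first 10 took 65.4 ± 1.97% and the first 20 took 79.9 ± 1.25% (SD, n = 3). With the mean shares, 5 miRNAs sufficed for 50% of the counts, 42 for 90% and 160 for 99%. By library, 90% was reached with 42, 40 and 44 miRNAs. The effective number of miRNAs, the exponential of the Shannon entropy, was 27.9, 26.5 and 32.2 in replicates 1, 2 and 3. Replicate 3 was thus the least concentrated library by each of these measures, with the lowest share of miR-9a-5p. By level, 21 miRNAs reached a mean of 10000 RPM and held 81.0% of the counts, 73 reached 1000 RPM, 187 reached 100 RPM and 464 reached 1 RPM.

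**Figure D2:**
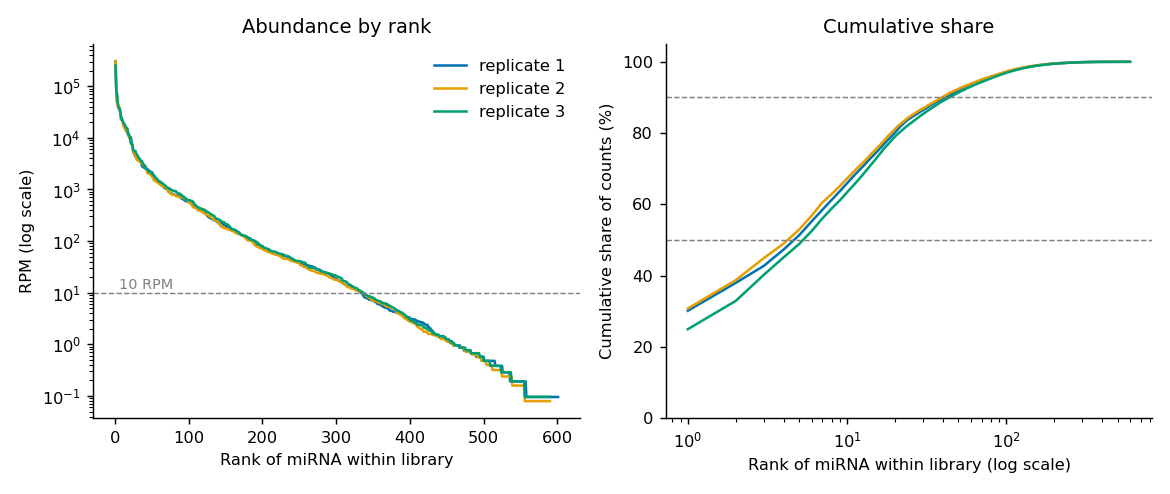
RPM (left, log scale) and cumulative share of counts in percent (right) against the rank of a miRNA within its own library, 1 line per control library. Dashed lines mark 10 RPM on the left and 50% and 90% on the right. The 3 lines nearly coincide beyond the first ranks, and the cumulative line of replicate 3 runs lowest, starting from 24.96%.

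The 10 RPM minimum fell in a dense stretch of the ranking. Just above it were miR-452-5p at 11.1 RPM, miR-138-2-3p at 10.9, miR-449a-5p at 10.5, miR-18a-3p at 10.5 and miR-98-3p at 10.2. Just below it were miR-9b-5p at 9.94 RPM, miR-190a-5p at 9.80, miR-138-1-3p at 9.71, miR-500-3p at 9.23 and miR-339-3p at 9.15. For miR-98-3p the libraries gave 126, 147 and 70 counts, and the 95% Wilson intervals of replicates 1 (10.1 to 14.4 RPM) and 3 (5.34 to 8.52 RPM) lay on different sides of the minimum. These intervals cover counting error only, and reads without molecular identifiers are not independent molecules.

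Grouping by seed condensed the ranking further. The seed CUUUGGU, held by miR-9a-5p alone among the listed sequences, took 28.6 ± 3.18% of the counts, and GAGGUAG, the let-7 seed, took 21.6 ± 1.05% (SD, n = 3). These 2 seeds together held 50.2% of the counts. The seed of miR-128-3p, CACAGUG, took 7.91%, CCCUGAG (miR-125) 4.59%, GUAAACA (miR-30 and miR-384) 3.38% and GGAAGAC (miR-7) 2.41%, so that the first 6 seeds held 68.5%. MiRNAs without a RefSeq entry, among them miR-99a-5p and miR-30d-5p, belong to no seed group here, so that this order holds only among the sequences with an entry. Grouped by name, the miR-30 family and the group of miR-99 and miR-100 each held more than the miR-125 family, as given below.

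The let-7 seed group had 9 members, all above 1000 RPM. Let-7c-5p supplied 27.9% of the group, let-7f-5p 19.1%, let-7g-5p 17.98%, let-7i-5p 17.4%, let-7b-5p 6.95% and let-7a-5p 6.87%, whereas let-7d-5p, let-7e-5p and miR-98-5p supplied less than 2% each. The sum had a share of 20.5, 21.8 and 22.5% in replicates 1, 2 and 3, a CV of 4.85%. Its members had CVs from 3.60% for let-7g-5p and 3.74% for let-7i-5p to 22.6% for let-7c-5p and 27.05% for let-7b-5p, so that 2 of the 9 varied less than the sum. The single members differ by few bases. Counted from the 5′ end, let-7c-5p and let-7b-5p differ by A17G, let-7c-5p and let-7a-5p by G19A, and let-7f-5p and let-7a-5p by A12G. Because the alignment allowed 1 mismatch, and the handling of reads that fit several miRNAs is not given in the sources used here, the split between these members is uncertain. Of the 18 miRNAs of the first 20 with a sequence, 8 had such a partner within 1 mismatch. Others among them were miR-7a-5p and miR-7b (A10U), miR-30a-5p and miR-30e-5p (C13U), miR-103-3p and miR-107-3p (G22C) and miR-101a-3p and miR-101b-3p (A16G). MiRNAs with such a partner held 23.0% of the counts.

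Most counts came from miRNAs with the same first base. Of the 305 miRNAs at 10 RPM or more with a sequence, 41.6% began with U, and these held 85.6 ± 1.63% of the counts of this set (SD, n = 3). MiRNAs beginning with A, C and G held 9.30, 4.78 and 0.362%. Without miR-9a-5p the share of U was 79.3%. Sequences of 22 nt held 44.4% and those of 23 nt 40.3% of the counts. Here length is that of the RefSeq entry, not of the reads, which the counts sum over all trimmed and extended forms.

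Lists of miRNAs known from particular cell types were compared with the label. All 12 miRNAs of the neuronal list were at 10 RPM or more in either arm, and their mature forms summed to 39.6 ± 2.71% of the counts (SD, n = 3), most of it miR-9a-5p and miR-128-3p. MiR-124-3p, the classical neuron-specific miRNA, measured 4980, 4785 and 5612 RPM and ranked 27th, so that the libraries lay close together. MiR-137-3p, which acts in dendrite growth, stood at 1191 ± 73.3 RPM, miR-218a-5p at 2119 ± 211 and miR-138-5p, known to limit spine size, at 339 ± 78.0 (SD, n = 3). MiR-134-5p, another dendritic miRNA, was at 819 ± 97.2 RPM (SD, n = 3). The lowest of the list was miR-153-3p at 27.3 RPM.

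MiRNAs of other cell types were low, with 1 exception. Of 4 miRNAs of microglia and blood leukocytes, the 3 listed (miR-142, miR-155 and miR-150) were each below 10 RPM, and their forms summed to between 4.63 and 5.75 RPM. Those of red cells (miR-451 and miR-144) summed to between 5.01 and 5.90 RPM, and those of pluripotent cells to between 0.399 and 1.15 RPM. In the vessel list, miR-126a-3p of endothelium was at 70.7 ± 7.68 RPM and miR-143-3p of smooth muscle at 76.9 ± 23.9 (SD, n = 3), and the sum lay between 143 and 205 RPM. The muscle list summed to between 49.4 and 67.2 RPM, most of it miR-499-5p at 46.2 RPM. MiR-1b, noted after its values were seen and outside the list, was at 42.5 RPM and differs from the muscle miRNA miR-1-3p (0.826 RPM) by A17G. The liver miRNA miR-122-5p was between 11.4 and 14.6 RPM, and the epithelial list, led by miR-203a-3p at 28.0 RPM, between 32.2 and 41.7 RPM. The exception was the glial list with 0.661 ± 0.0870% of the counts (SD, n = 3). Nearly all of it was miR-21-5p, which astrocytes and many other dividing cells express, at 7277, 6615 and 5571 RPM, rank 24. The oligodendrocyte miRNAs miR-219a and miR-338 reached 25.6 and 48.2 RPM in their most abundant form, and miR-146a-5p 15.02 RPM. In such bulk samples, fewer cells of a type and less RNA per cell cannot be told apart, and the part of non-neuronal cells in these values was not tested.

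The families differed widely in level. The let-7 and miR-98 precursors gave 21.7 ± 1.04% of the counts with all their forms, the miR-30 family 5.42 ± 0.273%, miR-99 and miR-100 together 4.85 ± 0.474% and the miR-125 family 4.77 ± 0.980% (SD, n = 3). The miR-181 family gave 2.22% and the miR-26 family 2.20%. At the other end, the miR-29 family, which is known to rise as neurons mature after birth, held 0.00636% with 1 of its 6 forms at 10 RPM or more, miR-29a-3p at 44.6 ± 6.93 RPM (SD, n = 3). The miR-17~92 and miR-106b~25 clusters, known from proliferating cells, held 1.77 ± 0.205% (SD, n = 3), with all 9 precursors at 10 RPM or more. They were led by miR-20a-5p at 4290 RPM, miR-92a-3p at 3880 and miR-25-3p at 3357. The imprinted miR-379 to miR-410 cluster held 1.90 ± 0.143% of the counts (SD, n = 3). Of its 35 listed precursors, 29 reached 10 RPM in at least 1 arm, and 42 of its 66 mature forms were at 10 RPM or more. Its most abundant members were miR-323-3p at 2312 RPM, miR-379-5p at 2121 and miR-300-3p at 1935.

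Some miRNAs named in the study or its figures covered a wide range in the control neurons. MiR-16-5p measured 753, 810 and 943 RPM, and the 6 precursors grouped here as its family (miR-15a, miR-15b, miR-16, miR-195, miR-497 and miR-322) held 0.111% of the counts. MiR-551b-3p measured 18.8, 17.8 and 17.1 RPM, while the other arm, miR-551b-5p, was at 3.54, 5.98 and 5.40 RPM. The study's results name the 5p arm, and its methods list an assay for the 3p arm. MiR-671 measured 17.6, 18.03 and 22.1 RPM and miR-1306-5p measured 14.0, 10.6 and 10.3 RPM. MiR-551b-3p, miR-671 and miR-1306-5p were thus among the rarest of the 334 miRNAs, at ranks 306, 300 and 327. MiR-551b-3p had 196, 223 and 177 counts and miR-1306-5p 146, 133 and 107 in replicates 1, 2 and 3. MiR-551b-5p rests on fewer, 37, 75 and 56 counts. Non-canonical miRNAs, made without Drosha or without Dicer, held 0.127%, most of it miR-320-3p at 1074 ± 222 RPM and miR-484 at 167 ± 7.48 (SD, n = 3), while Dicer-independent miR-451-5p stood at 3.53 RPM.

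Each precursor gives a 5p and a 3p product, and the counts of both allow their ratio to be taken within a library. Both arms were listed for 253 precursors, of which 200 reached 10 RPM in sum and entered the quasi-likelihood test of edgeR. At an adjusted p of 0.05, 191 of the 200 (95.5% called) had a dominant arm, 96 toward 5p and 95 toward 3p, and the direction was the same in all 3 libraries for 191 of the 200. Since the background is this high, a call by itself sets no precursor apart, and the size of the ratio is the measure to read. Among those called the median ratio was 33.8-fold. It exceeded 10-fold for 132 precursors, 100-fold for 78 and 1000-fold for 25, and it was below 2-fold for 18 of all precursors tested. Where both arms were at 10 RPM or more, 86 of 95 were called, 53 of them toward 5p. By counts rather than by precursors the 5p arm prevailed, with 78.5 ± 0.708% of the counts of paired arms (SD, n = 3), and 71.0 ± 1.35% without miR-9a. The rarer arm of each precursor held 3.32 ± 0.156% of these counts in sum.

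**Figure D3:**
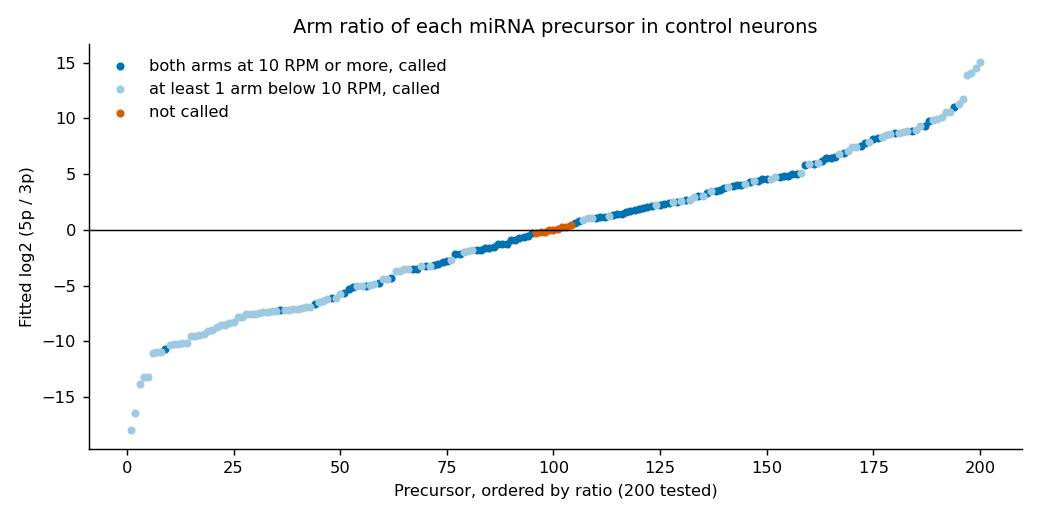
Fitted log2 ratio of the 5p to the 3p arm for the 200 tested precursors, ordered by ratio. Dark blue marks called precursors with both arms at 10 RPM or more, light blue those with at least 1 arm below it and orange the 9 not called. The ratios run from -17.99 to 15.04, and the ends beyond 10 in either direction hold mostly precursors whose rarer arm is below 10 RPM.

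The 2 arms of a few precursors are shown for comparison. In miR-26a the 3p arm was below 1 RPM, in miR-128 the 5p forms summed to 47.3 RPM beside a 3p arm at 79114 RPM, in miR-9a both arms were abundant, and in miR-106b and miR-382 the arms were close to even.
miR-26a-5p: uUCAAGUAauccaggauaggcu
miR-26a-3p: cCUAUUCUugguuacuugcac
miR-128-3p: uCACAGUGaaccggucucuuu
miR-128-1-5p: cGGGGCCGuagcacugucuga
miR-128-2-5p: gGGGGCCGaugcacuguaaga
miR-9a-5p: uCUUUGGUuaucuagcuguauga
miR-9a-3p: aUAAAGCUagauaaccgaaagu
miR-106b-5p: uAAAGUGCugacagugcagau
miR-106b-3p: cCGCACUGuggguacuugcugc
miR-382-5p: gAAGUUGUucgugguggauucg
miR-382-3p: aAUCAUUCacggacaacacuu

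Toward 5p the largest fitted ratio was that of miR-26a. MiR-26a-5p had 214255, 268970 and 234226 counts in replicates 1, 2 and 3, and miR-26a-3p had 6, 8 and 7, a fitted log2 ratio of 15.04 with a standard error of 0.21 and an adjusted p of 3.63e-08 in edgeR's test. It was followed by let-7g at 14.50, miR-21 at 14.11, miR-186 at 13.87, miR-20a at 11.75, miR-192 at 11.34, let-7i at 11.03 and miR-181d at 10.63, all as fitted log2 ratios. For miR-186 the 3p arm had 3 counts in all, so that the ratio of the summed counts, 16925-fold, has a 95% counting interval from 5791 to 82069. MiR-499-3p had 1 count, and the ratio of 1558 has an interval from 280 to 61538. MiR-497-3p was at 0 in every library, and against a floor of 3 counts per library its 5p arm was at least 50.7-fold higher.

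Toward 3p, miR-103 had 141090, 162618 and 179522 counts on its 3p arm and 2, 1 and 2 on the 5p arms of its listed loci, a fitted log2 ratio of -16.46 (standard error 0.25). MiR-101b-5p was at 0 in every library, and miR-101b-3p, with 39803, 35394 and 22613 counts, was at least 7538-fold higher against a floor of 3 counts per library. MiR-101a followed with a fitted log2 ratio of -13.87, miR-598 with -13.23, miR-328a with -13.18, miR-344a with -11.01, miR-107 with -10.95, miR-23b with -10.94 and miR-128 with -10.72. The latter was the only one of them with both arms above 10 RPM, 79114 RPM for miR-128-3p and 47.3 for the sum of both 5p forms. MiR-758-5p had a single count, and its ratio of 1800 toward 3p has a counting interval from 323 to 71096. Arms numbered by locus were added up for 17 of the 200 precursors, since the opposite arm is listed once.

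At the centre, 9 precursors were not called. MiR-106b, a cluster partner of miR-25, gave 395, 392 and 418 RPM on its 5p arm and 389, 366 and 430 RPM on its 3p arm in replicates 1, 2 and 3. The groups overlapped, and the fitted log2 ratio was 0.03 with a standard error of 0.11. MiR-382, of the imprinted cluster, changed its higher arm between libraries. Its log2 ratio was -0.34 in replicate 1, 0.30 in replicate 2 and 0.82 in replicate 3, with 832, 871 and 1088 RPM on the 5p arm and 1054, 707 and 617 RPM on the 3p arm. MiR-361, miR-376a, miR-539, miR-330 and miR-344b likewise had ratios on both sides of 0. MiR-369, with log2 ratios of -0.0030, 0.45 and 0.99, came closest to a call, at an adjusted p of 0.054. The remaining precursor was miR-219a, lower on its 5p arm in each library by small amounts, and a p that misses the threshold does not show that the arms are equal. MiR-485, at a log2 ratio of -0.30 (standard error 0.11), was called at an adjusted p of 0.036, with 140, 131 and 165 RPM on the 5p arm and 169, 157 and 212 on the 3p arm. That call was lost without replicate 2 (adjusted p of 0.273), without replicate 3 (0.108) and with DESeq2 (0.0861). The median SD of a log2 ratio between libraries was 0.22 over the precursors tested.

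Among the abundant precursors, miR-9a had a fitted log2 ratio of 4.57 (standard error 0.13), with ratios of 4.73, 4.58 and 4.41 in replicates 1, 2 and 3. Its rarer arm, at 12008 RPM, ranked 18th of all miRNAs. The higher arms of the 149 called precursors with both sequences began with U in 49.0% of cases and the lower arms in 19.5%. In 57 precursors only the higher arm began with U and in 13 only the lower arm. The median GC content was 45.5% for the higher and 50% for the lower arms.

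The control libraries differed by more than counting error. Over the 334 miRNAs at 10 RPM or more the median CV of RPM was 15.2%, with quartiles of 9.23 and 22.7%, where counting error alone would give a median of 2.47%. The CV was above 2 times the counting CV for 286 miRNAs and below it for 15. It was below 10% for 95 miRNAs and above 30% for 42. The median was 16.9% for miRNAs from 10 to below 100 RPM, 13.8% from 100 to below 1000, 14.0% from 1000 to below 10000 and 10.4% above, while the counting CV fell from 5.11 to 0.213%. The common biological CV estimated by edgeR was 18.8%. Pearson's r of log2 RPM across these miRNAs was 0.994 for replicates 1 and 2, 0.985 for replicates 1 and 3 and 0.995 for replicates 2 and 3. Across miRNAs, r mostly reflects their range of levels.

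**Figure D4:**
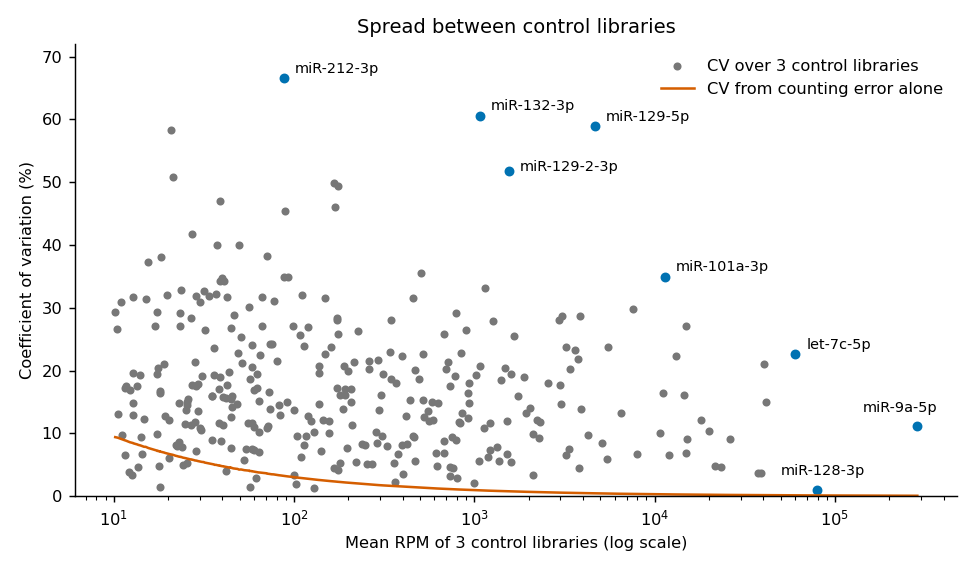
CV of RPM in percent over the 3 control libraries against mean RPM (log scale) for the 334 miRNAs at 10 RPM or more, 1 point each. The orange line is the CV from counting error alone. Most points lie above the line. MiR-128-3p has the lowest CV (0.989%), which is still above that of counting error. MiR-212-3p (66.6%), miR-132-3p (60.6%) and miR-129-5p (58.9%) stand highest among those labelled.

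At 100 RPM or more, the 5 most variable miRNAs were forms of miR-132, miR-212 and miR-129. MiR-132-3p measured 604, 810 and 1825 RPM in replicates 1, 2 and 3, a CV of 60.6%. MiR-129-5p measured 2796, 3338 and 7776 RPM (CV 58.9%), and miR-129-2-3p 1039, 1153 and 2495 RPM (CV 51.8%). In each of them replicate 3 was more than 2 times as high as either of the other libraries. Without replicate 3 the CV was 20.7% for miR-132-3p, 12.5% for miR-129-5p and 7.32% for miR-129-2-3p. MiR-129-1-3p (CV 49.8%) and miR-212-5p (CV 49.3%), the next in order among these, were also highest in replicate 3. The forms of miR-132, miR-212 and miR-129 are shown because they were all highest in replicate 3, and miR-101a-3p, which was highest in replicate 1, stands last for contrast.
miR-132-3p: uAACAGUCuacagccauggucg
miR-132-5p: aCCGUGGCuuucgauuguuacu
miR-212-3p: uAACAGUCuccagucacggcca
miR-212-5p: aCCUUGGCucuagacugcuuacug
miR-129-5p: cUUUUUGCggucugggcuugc
miR-129-1-3p: aAGCCCUUaccccaaaaag
miR-129-2-3p: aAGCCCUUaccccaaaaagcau
miR-101a-3p: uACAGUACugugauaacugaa

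MiR-132-3p and miR-212-3p share the seed AACAGUC, and their hairpins lie side by side on chromosome 10. MiR-212-5p is encoded at chr10:60521771-60521794 and miR-132-3p at chr10:60522091-60522112, both on the plus strand and in no other annotated gene. All 4 forms were highest in replicate 3. The ratio of replicate 3 to replicate 1 was 3.02 for miR-132-3p, 2.33 for miR-132-5p, 3.62 for miR-212-3p and 2.47 for miR-212-5p. The log2 ratio of 5p to 3p was -3.39, -3.45 and -3.76 for miR-132 and 1.38, 1.07 and 0.83 for miR-212 in replicates 1, 2 and 3. MiR-129-5p is encoded at 2 sites, chr3:100657448-100657468 (Mir129-2, minus strand) and chr4:58589716-58589736 (Mir129-1, plus strand). Its ratio of replicate 3 to replicate 1 was 2.78, and those of miR-129-2-3p and miR-129-1-3p were 2.40 and 2.46. MiR-129-1-3p matches the first bases of miR-129-2-3p and is shorter, so that the reads of these 2 forms may be mixed.

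Some of the other miRNAs with a high CV moved the opposite way. MiR-101a-3p, the only one of the first 20 with a CV above 30%, measured 15716, 10759 and 7815 RPM (CV 34.9%), miR-3559-5p 255, 152 and 102 RPM (CV 46.0%) and miR-192-5p 716, 388 and 421 RPM (CV 35.5%). They were highest in replicate 1. MiR-149-5p with 790, 1103 and 1545 RPM (CV 33.1%) and miR-345-5p with 79.8, 103 and 150 RPM (CV 32.1%) completed the 10 most variable at 100 RPM or more. Both were highest in replicate 3. The 10 least variable were miR-128-3p, miR-363-3p (CV 1.25%), miR-6331 (1.90%), miR-672-5p (2.16%), miR-495 (2.27%), miR-1839-5p (2.91%), miR-146b-5p (3.23%), miR-340-3p (3.29%), miR-379-5p (3.39%) and miR-106b-5p (3.55%). For miR-363-3p and miR-6331 the CV was below that of counting error, at 2.65 and 2.98%.

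In 192 of the 334 miRNAs replicate 3 was the highest library, in 126 replicate 1, and in 16 replicate 2, which was in the middle for 190. The counts depend on the scaling. Replicate 3 was highest for 142 and replicate 1 for 133 with TMM normalization, and for 145 and 141 with DESeq2 size factors, 2 methods that set the libraries level on the bulk of the miRNAs. More than 2-fold differences were found for 18 miRNAs between replicates 1 and 3, for 5 between replicates 2 and 3 and for 2 between replicates 1 and 2, and the count of 18 was the same under either scaling.

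The ratio of replicate 3 to replicate 1 moved with the base composition of the miRNA. Of 58 miRNAs with a GC content below 40%, 46 were lower in replicate 3, with a median ratio of 0.799. The median ratio was 1.11 for 119 miRNAs from 40 to below 50%, 1.17 for 88 miRNAs from 50 to below 60% and 1.24 for 40 miRNAs at 60% or more. Across the 305 miRNAs with a sequence, Pearson's r between GC content and the log2 ratio was 0.37 and Spearman's rho 0.37. These points share the same 2 libraries, and the values are a description. MiR-9a-5p, with a GC content of 34.8%, and miR-101a-3p, with 33.3%, were lower in replicate 3, and miR-149-5p, with 60.9%, was higher. After a straight line on GC content was taken from each library, the median CV of the 305 fell from 15.5 to 13.1% and 203 had a lower CV. The line was fitted to these same values and also levels the libraries, so that a fall follows in part from the fit itself. With the line taken off, 12 miRNAs in place of 18 were more than 2-fold apart, among them all 7 forms of miR-132, miR-212 and miR-129. These ratios of replicate 3 to replicate 1 were then 2.74 for miR-132-3p, 3.08 for miR-212-3p and 2.28 for miR-129-5p. Whether culture, RNA or library preparation lies behind the deviation of replicate 3 was not tested.

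**Figure D5:**
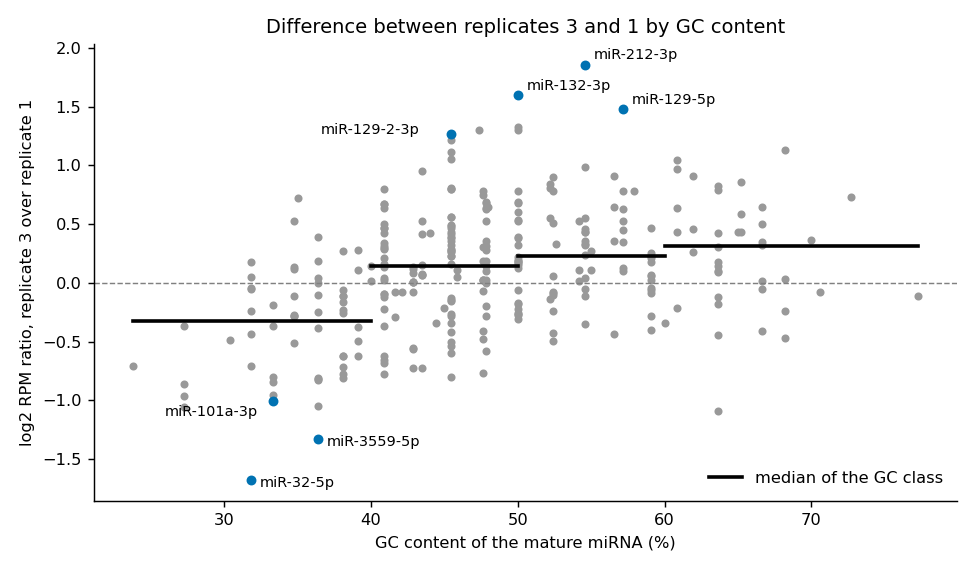
Log2 ratio of RPM in replicate 3 to replicate 1 against the GC content (%) of the mature sequence for the 305 miRNAs at 10 RPM or more with a RefSeq entry. Black lines are the medians of 4 GC classes, which run from -0.32 below 40% to 0.32 at 60% or more. MiR-132-3p, miR-212-3p and miR-129-5p lie above the rest of their classes, while miR-32-5p, labelled after its values were seen (34.2, 17.4 and 10.7 RPM), lies lowest.

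Both arms of a precursor did not always deviate together. Of the 95 precursors with both arms at 10 RPM or more, 42 had both arms higher and 18 both arms lower in replicate 3 than in replicate 1, and 35 had arms that moved in opposite directions. Pearson's r between the log2 ratios of the 2 arms was 0.39 across these precursors. MiR-382 was 1 of the 35, with 38.1% GC in its 3p arm and 50% in its 5p arm, and so was miR-369.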

How the data were processed

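Small RNA was sequenced from cortical neurons with the NEBNext small RNA kit. The authors trimmed the 3′ adapter, filtered reads by quality, removed reads shorter than 15 nt and assigned the rest with Miraligner (1 mismatch, 3 nt of trimming or addition) to the rat entries of miRBase 21. The deposited values are raw counts per mature miRNA and library, summed over all isomiRs and not normalized. Tool versions and the handling of reads that fit several miRNAs are not given in the sources used here.

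The 3 control samples were grouped by their labels. RPM, shares and CVs were computed from all counts of a library with Python 3.11.15, and no count was filtered before the column sum. The counting CV is that of a Poisson count at the library sizes. Arms were tested with edgeR 4.0.16 (R 4.3.3, glmQLFit and glmQLFTest) on the counts of both arms, with library as a block, the library total as size, and Benjamini-Hochberg adjustment over 200 precursors. Standard errors are the fitted log2 ratio divided by the square root of F. The scripts were tested on simulated data. Sequences and positions came from RefSeq (GRCr8), matched by name. Alternatives used limma 3.58.1, DESeq2 1.42.0, other filters and each library left out.

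The named miRNAs are the 20 most abundant, the extremes and the even cases of the arm ratio, the 10 most and least variable at 100 RPM or more, the neighbours of the 10 RPM minimum, the leading seed groups, the listed families and miRNAs named in the study. The members and lists were chosen with earlier results of these data known. The BDNF libraries were not used here.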

Additional observations from a re-analysis of the deposited data

How the results depend on the processing

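The ranking depended little on the processing. The set limits were the SD between libraries for a share and 1.5 times for a count. The 334 miRNAs at 10 RPM or more and the 42 for 90% moved by less with TMM scaling and with counts added up. So did the shares of the first miRNA and of the first 10. Of these results, only the 334 were also recomputed with DESeq2 scaling and other rules for the minimum, and they stayed within the limit. The exception for the shares was leaving out miR-9a-5p. The next miRNA then held 11.1% and the first 10 held 54.4%. Leaving out 1 library in turn gave 333 to 335 miRNAs at 10 RPM or more, 27.5 to 30.4% for the first miRNA and for its seed group, 64.5 to 66.5% for the first 10 and 41 to 43 miRNAs for 90%. All 88 recomputed list shares stayed within 1 SD. With 1 library left out, the mean share of the same miRNAs cannot leave that limit, so that those values test no stability. Counts added up only weigh the libraries by their similar totals. A share of the same miRNAs must then stay close to the mean, so that this setting tests no stability of a share either. The median CV was the least stable value. It was 10.1% without replicate 3, 11.9% without replicate 1 and 16.5% without replicate 2, and 19.3% with every miRNA that had 1 count in each library. Among pairs of libraries it was thus highest for replicates 1 and 3. Called precursors numbered 86 with both arms at 10 RPM, where fewer were tested, and between 91.96% (without replicate 2) and 97.5% (without replicate 1) of those tested were called with 1 library left out. Without the replicate block, which pairs the arms of a library, 190 were called. Against a 2-fold ratio in place of equality 177 were called, and 175 of 183 with 1 listed name per arm, an alternative added after seeing the data, as were the GC line and the rescaled counts of replicates 1 and 3. Of 309 recomputed ratios of the 30 named precursors, 292 kept their direction and call. MiR-485 lost its call under 6 alternatives, among them no replicate block (adjusted p of 0.158), and without replicate 1 miR-330, miR-361, miR-369 and miR-382 were called. The ratios that changed sign belong to precursors without a call. MiR-539 was at 0.021 without the replicate block. With 1 library left out, miR-539 ranged from -0.25 to 0.26, miR-106b from -0.0092 to 0.061, miR-376a from -0.054 to 0.27 and miR-382 from -0.020 to 0.56.

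RPM are shares of reads, not molecules per cell, since no added standard was used here, and levels of different miRNAs also carry any difference in cloning between sequences, which was not tested. With 3 libraries, a CV is itself imprecise. Below 10 RPM, counting error and the floor of 3 counts limit what can be said of a level.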

Other observations

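MiRNAs encoded side by side differed in level. From RefSeq (GRCr8), 47 groups of hairpins within 10 kb of each other were formed. In 22 of them at least 2 hairpins had a product with 1 genomic site at 10 RPM or more. The set is incomplete, since the neighbours Mir132 and Mir212, and Mirlet7b and Mirlet7c2, are in none of the groups. The counts and folds below hold for the groups formed. Each hairpin was given the mean RPM of its most abundant form among those with 1 site in the genome. Forms with more sites, which held 55.3% of the counts, were left out. Some hairpins thus stand by their rarer arm, as Mir17 by miR-17-1-3p at 23.0 RPM, where miR-17-5p was at 2571 RPM. By this measure, the highest and lowest hairpin at 10 RPM or more within a group differed by a median of 6.47-fold, and by more than 10-fold in 10 groups. Some of the large folds follow from the forms left out, as 187-fold in the group of Mir17 and 177-fold in that of Mir30c1 and Mir30e. The 9 hairpins at chr6:134298084-134331416, from Mir770 to Mir136 in the imprinted region, held 2.19 ± 0.181% of the counts (SD, n = 3) and ranged from 19.1 RPM to 15011 RPM for miR-127-3p. In the group of 31 hairpins from Mir379 to Mir410 at chr6:134543445-134579838, the 29 at 10 RPM or more ran from 23.3 to 2312 RPM. The most even group was that of miR-497 and miR-195, at 17.26 and 18.01 RPM, while miR-25 and miR-93 stood at 3357 and 1880 RPM. The group of miR-99b, let-7e and miR-125a at chr1:67350064-67350759 held 1.99 ± 0.220% of the counts (SD, n = 3), with 10733, 3240 and 5488 RPM.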
